A study of Rattus norvegicus with 12 samples.

Results

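Rat small hepatocytes plated on laminin-111 were compared with the same kind of cells plated on laminin-511. The members are the 3 arrays titled LN111 and the 3 titled LN511, 6 of the 12 arrays of the series, and they were described across all genes named on the array. Small hepatocytes are progenitor-like cells of the hepatocyte lineage that form colonies when liver cells are plated. Per the labels, they were isolated from the livers of F344 rats by collagenase perfusion, and CD44+ cells were sorted magnetically from colonies 9 days after plating. The sorted cells were kept on Matrigel. The LN111 group consisted of cells of passage 2 that spent 3 h on dishes coated with laminin-111. The LN511 group consisted of cells of the same passage that spent 3 h on dishes coated with laminin-511. Both groups shared strain, sort, passage and a serum-free medium with 10 ng/mL EGF, 10 mM nicotinamide, dexamethasone, insulin, transferrin and selenium. Whether the replicates of a coating are separate animals or cultures is not given in the labels. The p-values therefore measure only how far these samples spread, and that spread may be technical.

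Laminins are cross-shaped glycoproteins of basement membranes, each built from an alpha, a beta and a gamma chain. Laminin-111 carries the alpha 1 chain (Lama1), a chain of embryonic basement membranes and the main laminin of Matrigel, and laminin-511 carries the alpha 5 chain (Lama5), which is widespread in adult epithelia. Cells bind the end of the alpha chain through integrins (alpha 3 or alpha 6 with beta 1, and alpha 6 with beta 4), dystroglycan (Dag1) and, for alpha 5, the Lutheran glycoprotein (Bcam). Attachment to a matrix signals through focal adhesions to MAP kinases and to the actin cytoskeleton, whose tension controls the coactivators YAP and TAZ.

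Array signals were expressed on the log2 scale, after dividing each processed signal by its array's 75th percentile, so that 0 is the level of that percentile, and they are called relative levels below. Of the spots of an array, 55.9% to 60.2% were well above background and 0 were saturated. The 75th percentile was 1340 to 2150 on LN111 and 1130 to 1370 on LN511. LN111 replicate 3 was noisier than the others, with 1126 outlier spots against 350 to 496, and a scatter (coefficient of variation) among spots of repeated probes of 8.66% against 3.36% to 4.03%. All 6 arrays lay on 1 slide, the LN111 arrays in its row 1 and the LN511 arrays in its row 2, so slide row and coating cannot be told apart. Precision is limited by the 3 arrays per coating.

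The sort marker and the genes Alb and Afp were detected on both coatings. Cd44, the sort marker, was at 2.84, 2.70 and 2.96 on LN111, against 2.32, 2.83 and 2.66 on LN511, and the groups overlapped (difference 0.23 ± 0.18, adjusted p = 0.456). Alb (albumin) was at 5.75, 5.69 and 6.12 on LN111, against 6.53, 6.12 and 6.48 on LN511, a gap that did not pass (-0.53 ± 0.20, adjusted p = 0.143). Afp, the fetal albumin homologue, was at 5.47, 2.41 and 3.36 on LN111, against 7.20, 3.52 and 6.79 on LN511. It spread by several log2 units within each coating, the groups overlapped, and its difference of -2.09 did not pass (adjusted p = 0.308). All of these were well above background on 6 arrays.

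Of 17468 genes tested, 1911 were called between the coatings by limma at an adjusted p under 0.05 (10.9%), 700 higher on LN111 (4.01%) and 1211 lower (6.93%). Of the 12005 tested genes whose name was no placeholder, 546 were higher (4.55%) and 547 lower (4.56%). The gene lists below hold only such names, though their shares are set beside those of all genes. All 3 LN111 arrays lay above all 3 LN511 arrays for 1930 genes (11%), and below them for 4302 (24.6%). The median difference of all genes was -0.15, and changes in the paragraphs that follow stand beside it. On the first principal component, which held 63.2% of the variance, LN111 arrays lay at 78.1, 18.7 and 93.6 and LN511 arrays at -39.4, -91.1 and -59.8. The split by direction depended on the scaling. With quantile normalization 859 genes were higher and 844 lower, and without any scaling 1510 were higher and 428 lower, with a median of 0.35. The calls also depended on single arrays. Without LN511 replicate 2 the counts were 43 higher and 48 lower, and without LN511 replicate 3 they were 37 and 84. Without LN511 replicate 1, LN111 replicate 1 or LN111 replicate 3 they were 329 and 328, 235 and 519, and 209 and 327, and without LN111 replicate 2 they were 985 and 1727. Of 90 called genes that the rule for names took, 82 lost their call without LN511 replicate 2 and 79 without LN511 replicate 3. The numbers lost were 34 without LN511 replicate 1, 35 without LN111 replicate 1, 44 without LN111 replicate 3 and 5 without LN111 replicate 2. Plk3, Itga11, Postn and Shcbp1l kept their calls when each array was left out in turn, and 4 of the 90 genes did so in all. Itga11, Postn and Shcbp1l were well above background on 0 LN511 arrays, so they passed the filter through LN111 alone. With signals raised to background they differed by 3.15, 0.98 and 2.97.

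Genes of connective tissue matrix were higher on LN111. Of 21 tested members of the interstitial matrix list, 13 rose and 0 fell (61.9% and 0%, against 4.01% and 6.93% of all genes). At an unadjusted p under 0.05 there were 16 and 0, and the median difference was 3.32 against -0.15 for all genes. Col3a1, a fibrillar collagen of loose connective tissue, was at 3.38, 2.28 and 3.77 on LN111, against 0.05, -3.56 and -2.0 on LN511. Every LN111 array was above every LN511 array (4.98 ± 0.93, adjusted p = 0.0278). Col6a3, a chain of the beaded-filament collagen VI, was at 2.45, 1.99 and 3.72 on LN111, against -1.06, -3.53 and -2.44 on LN511, again with no overlap (5.06 ± 0.72, adjusted p = 0.0179, other probe 5.47). Col5a1, a collagen that starts fibrils, was at 2.26, 2.17 and 3.40 on LN111, against -0.44, -0.35 and -0.84 on LN511 (3.15 ± 0.36, adjusted p = 0.015). LN111 replicate 3 was the highest array for all 3 collagens.

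The enzymes that cross-link these fibres moved with them. Lox, lysyl oxidase, was at 1.65, 0.78 and 2.41 on LN111, against -1.71, -2.96 and -2.39 on LN511 (3.97 ± 0.50, adjusted p = 0.0153). Loxl2, a lysyl oxidase of basement membranes and fibrils, was at 0.19, -0.50 and 1.20 on LN111, against -3.33, -3.82 and -4.42 on LN511 (4.16 ± 0.49, adjusted p = 0.015). Postn, a matricellular protein of healing tissue, was at -5.08, -4.88 and -4.30 on LN111, against -7.73, -7.94 and -7.87 on LN511, and LN511 arrays were not well above background. It was at least 1.98-fold higher on LN111 (adjusted p = 0.00873). Among members that did not pass were Fn1 (fibronectin), with a difference of -0.10, and Spp1 (osteopontin), at -1.72. Without LN511 replicate 2 or replicate 3, 1 of the 21 members passed, and without LN111 replicate 1 or replicate 3, 6 passed. The median was 2.86 to 3.60 in these 4 fits, and 15 or 16 members had an unadjusted p under 0.05.

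**Figure D1:**
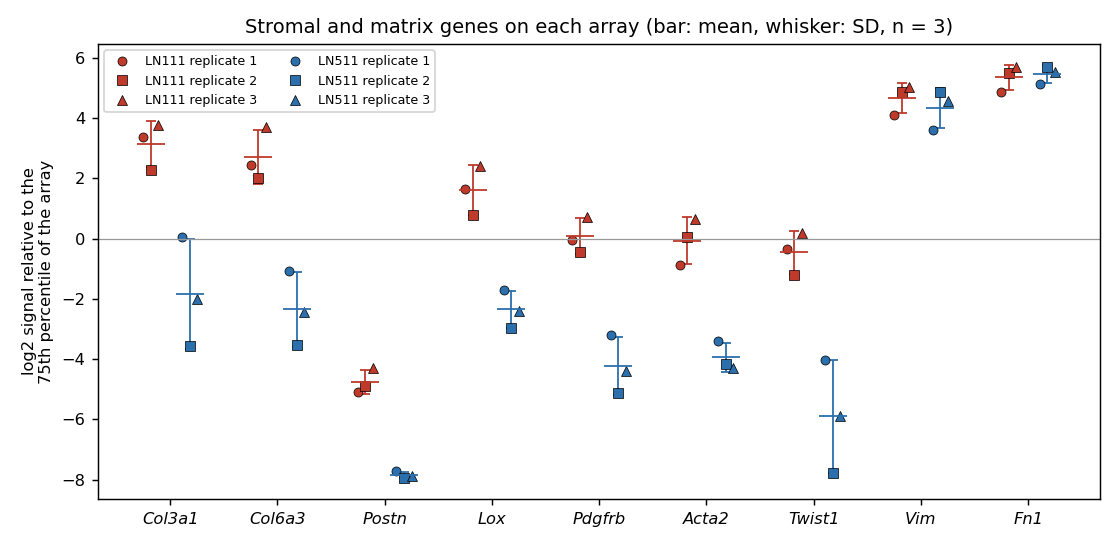
Relative levels (log2 signal over the 75th percentile of the array, vertical axis) of 9 stromal and matrix genes on the 3 LN111 arrays (red, left of each pair) and the 3 LN511 arrays (blue, right). Points are arrays, bars means and whiskers SD. All LN111 points of the first 7 genes lie above all LN511 points, while the points of Vim and Fn1 overlap.

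The largest increases that met the whole rule for names (named gene, groups apart, well above background on LN111) came from 546 genes that met it. With Col3a1 and Col6a3 above, the 12 hold 4 collagen chains and genes of several other roles. Twist1, a mesenchymal transcription factor, was at -0.36, -1.21 and 0.19 on LN111, against -4.04, -7.77 and -5.90 on LN511, where 1 LN511 array was well above background (5.45 ± 0.94, adjusted p = 0.0234, or 4.75 with signals raised to background). Tnn, tenascin N of fibrous tissue, was at 3.61, 2.29 and 3.95 on LN111, against -0.21, -3.72 and -2.41 on LN511 (5.39 ± 0.93, adjusted p = 0.0234). Actg2, the smooth muscle gamma actin, was at 0.86, 1.25 and 1.09 on LN111, against -2.75, -4.32 and -5.81 on LN511 (5.36 ± 0.73, adjusted p = 0.0167). Actg2 was well above background on 2 LN511 arrays. These 3 genes spread more on LN511 than on LN111, and no array of one coating reached the other.

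Grem1, a secreted BMP antagonist of fibroblasts, differed by 5.06, adjusted p = 0.0269, or by 4.35 with signals raised to background, since 1 LN511 array was well above it. The collagen chains Col5a3 and Col15a1 differed by 4.88, adjusted p = 0.0197 and by 4.80, adjusted p = 0.0167. En1, a homeobox gene that marks a lineage of skin fibroblasts in mice, differed by 4.94, adjusted p = 0.0417, and Serpinb2, an inhibitor of plasminogen activators, by 4.79, adjusted p = 0.0449. Of these, En1 and Serpinb2 were well above background on 2 LN511 arrays (En1 4.44 with signals raised to background). Mrgprf, an orphan receptor, was well above background on 1 LN511 array, and differed by 5.39, adjusted p = 0.0205, or by 4.08 with signals raised to background. Shcbp1l was at -3.21, -2.68 and -2.41 on LN111, against -7.20, -7.62 and -7.81 on LN511, not well above background on LN511, and was at least 7.85-fold higher on LN111 (adjusted p = 0.00873).

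Markers of hepatic stellate cells and fibroblasts, the matrix-producing cells of the liver, were higher on LN111 as well. This list shares 5 tested genes with the interstitial matrix list, so their counts are not separate. Of 26 markers, 18 were tested, 8 rose and 0 fell (44.4% and 0% of those tested, against 4.01% and 6.93% of all genes). At an unadjusted p under 0.05 these counts were 15 and 0, and all 3 LN111 arrays were above all LN511 arrays for 14. The median difference was 3.08, or 2.92 with signals raised to the background level. The summed linear level of the 18 markers was 118.4 to 193 on LN111 and 10.6 to 28.8 on LN511, in units of the 75th percentile. Since these are bulk samples, fewer cells of a type and less RNA per cell cannot be told apart.

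Pdgfrb, the PDGF receptor of pericytes and stellate cells, was at -0.04, -0.44 and 0.73 on LN111, against -3.21, -5.12 and -4.39 on LN511 (4.32 ± 0.54, adjusted p = 0.0153). Acta2, the smooth muscle actin of activated stellate cells, was at -0.89, 0.04 and 0.64 on LN111, against -3.39, -4.15 and -4.30 on LN511 (3.88 ± 0.45, adjusted p = 0.015). Pcolce, which enhances procollagen cleavage, was at 3.92, 3.61 and 4.32 on LN111, against 2.08, 1.83 and 1.75 on LN511 (2.07 ± 0.22, adjusted p = 0.0143). The surface marker Thy1 was at -1.30, -1.11 and -0.39 on LN111, against -2.75, -2.67 and -3.08 on LN511 (1.90 ± 0.27, adjusted p = 0.018). For each of these genes the highest array was LN111 replicate 3, and every LN111 array was above every LN511 array. Des (desmin) and Dcn (decorin), named after their values were seen, did not pass at differences of 3.26 and 3.32, and Lrat, the retinol-storage enzyme of quiescent stellate cells, stood at -1.07 with overlapping groups. The markers Lum, Ngfr, Gfap, Vipr1, Hgf, Colec10, Rgs5 and Tcf21 were too dim to be tested. Without LN511 replicate 2 or replicate 3, 0 of the 18 markers passed limma at an adjusted p under 0.05, 14 had an unadjusted p under 0.05 in each case, and the medians were 2.07 and 3.16. Without LN111 replicate 1, 5 passed, and without LN111 replicate 3, 4 passed.

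The lists that cover mesenchymal transition, contraction and matrix turnover held a mixture. Of 33 transition genes tested, 11 rose and 0 fell (33.3% and 0%, against 4.01% and 6.93% of all genes). At an unadjusted p under 0.05 these counts were 14 and 3. Ltbp1, which tethers latent TGF-beta to the matrix, was at -1.80, -2.20 and -1.09 on LN111, against -4.04, -4.09 and -4.37 on LN511 (2.47 ± 0.30, adjusted p = 0.0153). S100a4, a calcium-binding protein of motile cells, was at 6.02, 5.32 and 6.37 on LN111, against 4.01, 2.61 and 3.17 on LN511 (2.64 ± 0.43, adjusted p = 0.0213, other probe 1.47). Foxc2, a forkhead factor of mesenchyme, was not well above background on LN511 and was at least 2.09-fold higher on LN111 (adjusted p = 0.0178). Vim (vimentin) was at 4.11, 4.87 and 5.03 on LN111, against 3.60, 4.87 and 4.55 on LN511, and its groups overlapped (0.33 ± 0.40, adjusted p = 0.642). The list's median was 0.45. The transition list shares 3 tested genes with the interstitial matrix list and 1 with the fibroblast list. When the fit omitted LN511 replicate 1, 6 rose, without LN111 replicate 1, 3 did, without LN111 replicate 3, 2 did, and without LN511 replicate 3, 1 did. After leaving out LN511 replicate 2, 0 of the 33 passed limma at an adjusted p under 0.05 and 15 had an unadjusted p under 0.05.

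Of 39 actin cytoskeleton genes and SRF targets, 6 rose and 1 fell (15.4% and 2.56%, against 4.01% and 6.93% of all genes). Their median of -0.06 turned positive with quantile normalization (0.05) and without scaling (0.43). Myl9, the regulatory light chain of smooth muscle myosin, was at 1.01, 1.99 and 2.18 on LN111, against -1.59, -2.32 and -2.51 on LN511 (3.86 ± 0.39, adjusted p = 0.0135). Tpm2, a muscle tropomyosin, was at 2.65, 3.08 and 3.69 on LN111, against -0.10, -2.53 and -1.86 on LN511 (4.64 ± 0.65, adjusted p = 0.0174). The genes that rose, Myl9, Acta2, Actg2, Tpm2, Tagln and Fscn1, include the smooth muscle isoforms. The cytoplasmic actins Actb and Actg1 differed by -0.17 and -0.60 and did not pass. The 1 that fell was Srf, the factor after which the targets are named (-1.06). Without LN111 replicate 3, 2 rose, without LN511 replicate 3, 1 did, and without LN511 replicate 2, 0 passed limma at an adjusted p under 0.05 and 9 had an unadjusted p under 0.05.

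Of 34 proteases and inhibitors, 8 rose and 4 fell (23.5% and 11.8%, against 4.01% and 6.93% of all genes). Mmp2, the gelatinase of stromal cells, was at 4.08, 3.49 and 4.68 on LN111, against 1.57, 0.02 and 0.39 on LN511 (3.42 ± 0.49, adjusted p = 0.0178). Mmp23 and Adam12, metalloproteinases bound to the cell membrane, differed by 3.31, adjusted p = 0.015 and by 3.73, adjusted p = 0.019. Spint1, an epithelial inhibitor of serine proteases, was lower at 0.83, 1.08 and 0.30 on LN111, against 2.28, 2.21 and 2.15 on LN511 (-1.47 ± 0.23, adjusted p = 0.0196). In unscaled values 15 members rose and 0 fell, and the call of Spint1 was lost. With the loss of LN511 replicate 2 or replicate 3, 0 of the 34 passed limma at an adjusted p under 0.05, and 19 or 17 had an unadjusted p under 0.05. Without LN111 replicate 1 or LN511 replicate 1, 3 rose, and without LN111 replicate 3, 1 did.

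Among the laminin chains that the cells make themselves, the beta 1 chain was higher on LN111. Lamb1 was at 2.14, 2.23 and 2.92 on LN111, against 0.67, 0.89 and 0.33 on LN511 (1.80 ± 0.27, adjusted p = 0.019), although its other probe differed by only 0.19. Lama5, the alpha chain that defines laminin-511, differed by -0.45, adjusted p = 0.487, and Lamc1, the gamma chain shared by both coatings, by -0.24, adjusted p = 0.52. Neither passed, and Lama1 was too dim to be tested. In the whole basement membrane list, 4 of 17 tested members rose and 1 fell (23.5% and 5.88%, against 4.01% and 6.93% of all genes). By limma at an unadjusted p under 0.05 these counts were 7 and 3. The list as a whole was not shifted upward, with 8 positive and 9 negative differences and a median of -0.005. Nid1, nidogen, which bridges laminin and collagen IV, was at -0.19, -0.03 and 0.66 on LN111, against -3.05, -4.87 and -3.76 on LN511 (4.04 ± 0.49, adjusted p = 0.0153). Sparc, a collagen-binding protein, was at 6.12, 5.81 and 6.74 on LN111, against 3.75, 2.63 and 3.03 on LN511 (3.09 ± 0.37, adjusted p = 0.015). Fbln1, fibulin 1, differed by 1.96, adjusted p = 0.0313, with its other probe at 0.67. When the fit omitted LN511 replicate 2, 1 of these 17 members passed, and without LN511 replicate 3, 0 passed limma at an adjusted p under 0.05 and 10 had an unadjusted p under 0.05.

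The laminin receptors that were fixed by name did not pass the test. Itgb1, the beta 1 chain of most laminin-binding integrins, was at 3.38, 3.67 and 3.59 on LN111, against 3.27, 3.49 and 3.25 on LN511, and its groups overlapped (0.21 ± 0.16, adjusted p = 0.425). Itga6, the laminin-binding alpha chain, was lower on every LN111 array, at -1.96, -0.97 and -2.41 on LN111, against -0.79, -0.04 and -0.71 on LN511, but did not pass (-1.27 ± 0.41, adjusted p = 0.107). Itga3, Itgb4 and Bcam differed by -1.0, adjusted p = 0.192, by -1.81, adjusted p = 0.138 and by -2.03, adjusted p = 0.186, and Dag1 by -0.11, adjusted p = 0.704. Itga5, the fibronectin receptor chain, was at -0.33, -0.65 and -0.12 on LN111, against -2.02, -1.01 and -1.48 on LN511, apart but not passing (1.13 ± 0.29, adjusted p = 0.0619). Itga2, a collagen and laminin receptor, was too dim to be tested.

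The receptors that passed included those of collagens and fibronectin. Of 28 integrins and other matrix receptors, 5 rose and 1 fell (17.9% and 3.57%, against 4.01% and 6.93% of all genes). Itga11, a collagen receptor chain of fibroblasts, was at -3.15, -2.12 and -2.49 on LN111, against -5.77, -6.56 and -6.00 on LN511, not well above background on LN511, and at least 8.89-fold higher on LN111 (adjusted p = 0.0126). Itga4, which binds VCAM1 and fibronectin, was at least 3.06-fold higher (adjusted p = 0.0163). Ddr2, a collagen receptor kinase, was at -2.28, -3.19 and -1.43 on LN111, against -5.10, -5.21 and -6.05 on LN511 (3.15 ± 0.50, adjusted p = 0.0202). Itga1, a chain for collagens and laminins, and Itga8 also rose (3.05 and 4.02), named to complete the count. Ddr2 and Itga8 were well above background on 2 LN511 arrays (3.06 and 3.91 with signals raised to background). Itga11, Itga4, Ddr2 and Itga8 passed the filter through LN111 alone, so the share of 17.9% is no result about the list. With a filter of all 6 arrays, 20 members were tested, 1 rose and 1 fell, at a median of -0.03. Itgb6, an epithelial integrin chain that activates TGF-beta, was lower at -3.25, -3.68 and -3.88 on LN111, against -1.55, -2.21 and -1.97 on LN511 (-1.69 ± 0.25, adjusted p = 0.0188). After leaving out LN511 replicate 2 or replicate 3, 1 of the 28 passed, and without LN511 replicate 1, LN111 replicate 1 or LN111 replicate 3, 3 rose, and without LN111 replicate 2, 8 rose and 6 fell. Without scaling 10 rose and 0 fell.

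Immediate-early genes, which are transcribed within minutes of a growth factor, adhesion or stress signal, were lower on LN111. Of 32 tested, 14 fell and 0 rose (43.8% and 0%, against 6.93% and 4.01% of all genes). At an unadjusted p under 0.05 these counts were 21 and 1, and the median was -0.95. Plk3, a stress-responsive kinase, was at -0.90, -0.55 and -0.82 on LN111, against 1.10, 1.38 and 1.16 on LN511 (-1.97 ± 0.17, adjusted p = 0.0095). Btg2, an antiproliferative gene, was at 1.14, 1.19 and 1.34 on LN111, against 2.84, 3.18 and 3.32 on LN511 (-1.89 ± 0.18, adjusted p = 0.0124). Ier2, a nuclear early-response protein, was at 2.00, 2.29 and 2.07 on LN111, against 3.26, 3.76 and 3.53 on LN511 (-1.40 ± 0.19, adjusted p = 0.0159). Klf6, a zinc finger factor, was at 1.08, 1.15 and 1.24 on LN111, against 2.23, 2.50 and 2.59 on LN511 (-1.29 ± 0.16, adjusted p = 0.0151). In these 4 genes the arrays of a coating lay close together, and all LN111 arrays were below all LN511 arrays.

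Egr1, an early growth response factor, was at -0.27, -0.70 and 0.47 on LN111, against 1.03, 1.75 and 1.37 on LN511 (-1.55 ± 0.35, adjusted p = 0.0425). Fos, its classical companion, was at -0.21, -0.59 and -0.54 on LN111, against -0.38, 0.53 and 0.31 on LN511, where LN111 replicate 1 lay above LN511 replicate 1, and did not pass (-0.59 ± 0.27, adjusted p = 0.214). The other 9 that fell were Maff, Jun, Atf3, Hbegf, Fosb, Jund, Ier3, Junb and Myc, named to complete the count. They ranged from -2.34 for Atf3 to -0.77 for Ier3. Beside these values, the summed level of stromal markers was higher on every LN111 array, and its part in the difference was not tested. The count was 9 with quantile normalization and 4 without scaling, where the median was -0.45. It was 1 without LN511 replicate 2, 2 without LN511 replicate 3, 6 without LN111 replicate 1, and 7 without LN111 replicate 3 or without LN511 replicate 1. In each of these 5 fits, 20 to 23 of the members were lower at an unadjusted p under 0.05.

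Some promoters of these genes share a short palindrome. Of 32 members tested, 22 had a promoter in the RefSeq table (build GRCr8, 250 bases before the start to 50 after), and 5 of these (22.7%) held TGACGTCA, the cyclic AMP response element, which reads the same on both strands. The share was 3.16% of the 10174 promoters of genes tested and 1.91% of 27457 promoters in all. The genes were Jund, Ier2, Btg2, Maff and Plk2, and the first 4 of them passed. The promoters of Ier2 and Btg2, with the element in capitals, are printed because these genes had the 2 smallest p-values among the 5. A match is a stretch of letters and shows no binding.
Ier2 promoter, chr19:40399123-40399422, plus strand: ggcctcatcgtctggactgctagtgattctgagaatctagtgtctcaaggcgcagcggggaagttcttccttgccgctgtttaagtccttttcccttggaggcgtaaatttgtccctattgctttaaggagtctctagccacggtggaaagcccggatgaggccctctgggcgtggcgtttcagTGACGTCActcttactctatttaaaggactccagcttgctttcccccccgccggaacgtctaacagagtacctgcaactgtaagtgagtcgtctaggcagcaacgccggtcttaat
Btg2 promoter, chr13:48087641-48087940, minus strand: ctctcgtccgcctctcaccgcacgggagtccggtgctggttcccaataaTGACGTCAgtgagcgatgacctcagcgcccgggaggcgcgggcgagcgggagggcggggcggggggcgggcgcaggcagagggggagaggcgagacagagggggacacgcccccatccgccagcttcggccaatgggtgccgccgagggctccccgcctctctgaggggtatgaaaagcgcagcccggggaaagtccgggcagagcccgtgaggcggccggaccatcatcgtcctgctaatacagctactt

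Feedback phosphatases that are induced by MAP kinase activity were among the genes that fell. Of 24 feedback inhibitors, 5 fell and 1 rose (20.8% and 4.17%, against 6.93% and 4.01% of all genes). Dusp8 was at -2.49, -1.71 and -2.23 on LN111, against 0.19, -0.09 and 0.49 on LN511 (-2.34 ± 0.26, adjusted p = 0.0149). Dusp1 was at -0.31, -0.21 and -0.21 on LN111, against 0.90, 1.32 and 1.27 on LN511 (-1.41 ± 0.17, adjusted p = 0.015), and Dusp5 at 2.72, 2.13 and 2.67 on LN111, against 3.62, 3.85 and 3.59 on LN511 (-1.18 ± 0.21, adjusted p = 0.0248). All of these are dual-specificity phosphatases, and their LN111 arrays stayed below every LN511 array. Socs2, which limits growth hormone signalling, differed by -2.24, adjusted p = 0.0273, and Dusp10 also fell (-1.39). Socs2 was well above background on 2 LN111 arrays (-2.06 with signals raised to background). The exception was Dusp2 (4.16, adjusted p = 0.0341), which was well above background on 1 LN511 array and differed by 3.34 with signals raised to background. Without scaling 5 rose and 2 fell. With the loss of LN511 replicate 1, LN111 replicate 1 or LN111 replicate 3, 2 fell, and without LN511 replicate 2 or replicate 3, 0 passed limma at an adjusted p under 0.05, while 8 were lower at an unadjusted p under 0.05.

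The 3 members of the growth factor list that fell were ligands of the EGF family. Epgn (epigen) was at -5.83, -6.05 and -6.20 on LN111, against -4.46, -4.41 and -4.27 on LN511 (-1.65 ± 0.16, adjusted p = 0.0129, or -1.47 with signals raised to background, which 1 LN111 array was well above), and Hbegf, the heparin-binding ligand, at -2.10, -2.54 and -1.51 on LN111, against -0.55, 0.17 and -0.70 on LN511 (-1.69 ± 0.35, adjusted p = 0.0349). Tgfa fell by 1.30 on the log2 scale (named to complete the count). Areg, another ligand, at -4.01, -0.90 and -2.25 on LN111, against -0.69, 1.61 and 0.75 on LN511, did not pass (-2.95 ± 0.92, adjusted p = 0.0966). Vegfc, a lymphatic growth factor, was higher at 1.04, 0.36 and 1.39 on LN111, against -0.54, -0.62 and -0.47 on LN511 (1.47 ± 0.28, adjusted p = 0.0286), and Fgf2 was at least 2.21-fold higher (adjusted p = 0.0234). In all, 4 of 34 growth factors and receptors rose and 3 fell (11.8% and 8.82%, against 4.01% and 6.93% of all genes). The share that fell is near that of all genes, so the decreases are values of single members and no result about the list. Without scaling 6 rose and 0 fell. When the fit omitted LN511 replicate 2 or replicate 3, 0 passed limma at an adjusted p under 0.05, while 13 had an unadjusted p under 0.05. Without LN111 replicate 1 there were 1 higher and 2 lower, and without LN111 replicate 3 or LN511 replicate 1 there were 2 higher and 1 lower.

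**Figure D2:**
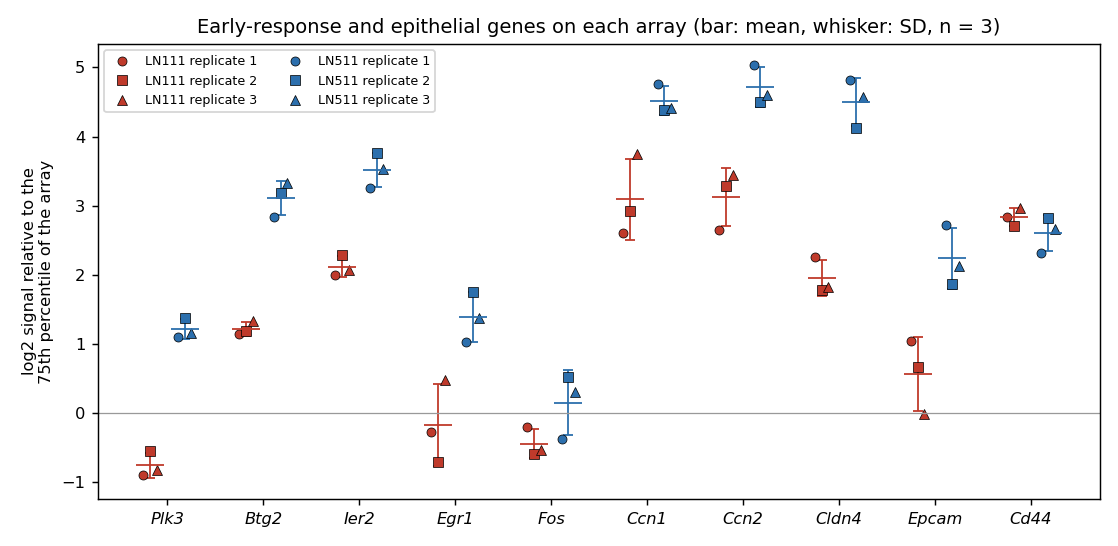
Relative levels (log2 signal over the 75th percentile of the array, vertical axis) of early-response, YAP-target and epithelial genes and of Cd44 on the 3 LN111 arrays (red, left of each pair) and the 3 LN511 arrays (blue, right). Points are arrays, bars means and whiskers SD. LN111 points lie below LN511 points for every gene but Fos and Cd44, whose points overlap.

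Targets of YAP and its DNA-binding partner TEAD were split. Of 20 tested, 4 rose and 4 fell (20% each, against 4.01% and 6.93% of all genes). Ankrd1, a cardiac and mechanosensitive repeat protein, was at -2.22, -0.27 and -0.62 on LN111, against 1.82, 2.32 and 2.90 on LN511 (-3.39 ± 0.56, adjusted p = 0.0215), among the 12 largest decreases. Ccn2, connective tissue growth factor, was at 2.65, 3.29 and 3.45 on LN111, against 5.04, 4.51 and 4.61 on LN511 (-1.59 ± 0.27, adjusted p = 0.0226). Ccn1, its close relative, was at 2.61, 2.93 and 3.74 on LN111, against 4.76, 4.38 and 4.42 on LN511 (-1.43 ± 0.32, adjusted p = 0.0415). F3 (tissue factor) fell as well (-0.86). Those that rose were Axl, a receptor kinase (1.99, adjusted p = 0.025, or 1.66 with signals raised to background, which 1 LN511 array was well above), the phosphatase Ptpn14 (0.83, adjusted p = 0.0237, other probe 0.15), Nt5e and Asap1. The list's median was -0.04, and it turned positive with quantile normalization (0.05) and without scaling (0.46). After leaving out LN511 replicate 1, replicate 2 or replicate 3, 0 of the 20 passed limma at an adjusted p under 0.05, while 10 had an unadjusted p under 0.05. Without LN111 replicate 1 there were 1 higher and 2 lower, and without LN111 replicate 3 there were 0 higher and 1 lower.

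The TEAD motif GGAATG (or CATTCC on the other strand) was found in 6 of the 15 promoters of tested YAP and TEAD targets in the RefSeq table (40%), against 11.4% of the promoters of genes tested and 13.9% of all 27457. Ccn2 held 3 copies and Ccn1, Amotl2, Ajuba, Ptpn14 and Nuak2 held 1 each. Among the 6, Ccn1 and Ccn2 fell, Ptpn14 rose and the others did not pass, so genes with the motif went both ways. The Ccn2 promoter (GRCr8), the one with the most copies, is printed with the motif in capitals.
Ccn2 promoter, chr1:22624565-22624864, minus strand: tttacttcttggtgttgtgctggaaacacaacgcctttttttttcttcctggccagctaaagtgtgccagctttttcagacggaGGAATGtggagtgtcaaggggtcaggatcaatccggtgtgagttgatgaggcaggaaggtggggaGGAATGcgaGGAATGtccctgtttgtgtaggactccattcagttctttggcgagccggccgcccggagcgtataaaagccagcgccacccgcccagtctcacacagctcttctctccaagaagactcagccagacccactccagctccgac

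Genes of epithelial junctions and polarity were lower on LN111. Of 40 tested, 11 fell and 1 rose (27.5% and 2.5%, against 6.93% and 4.01% of all genes). At an unadjusted p under 0.05 these counts were 22 and 2, and the median was -1.06. Cldn4, a tight junction claudin of ducts and progenitors, was at 2.26, 1.78 and 1.82 on LN111, against 4.81, 4.12 and 4.57 on LN511 (-2.55 ± 0.24, adjusted p = 0.0125). Pard6b, a core polarity protein, was at -1.18, -0.84 and -1.60 on LN111, against 1.18, 0.65 and 0.93 on LN511 (-2.13 ± 0.25, adjusted p = 0.015). Crb3, the epithelial Crumbs protein, was at -1.02, -1.12 and -2.12 on LN111, against 0.53, 0.36 and 0.35 on LN511 (-1.84 ± 0.31, adjusted p = 0.0228), and Ocln, occludin, at 0.10, 0.46 and -0.62 on LN111, against 1.91, 1.58 and 1.68 on LN511 (-1.75 ± 0.30, adjusted p = 0.0228). All LN111 arrays lay below all LN511 arrays for each of the 4, and for 24 of the 40 members. The cadherins went opposite ways. The epithelial Cdh1, named here after its values were seen, fell (-1.49, adjusted p = 0.0414), and Cdh2, the only member that rose, is the cadherin of mesenchyme and of hepatocytes (1.53, adjusted p = 0.0359). The summed level of stromal markers was higher on the same LN111 arrays, and its part in the difference was not tested. With quantile normalization 5 members fell, and without scaling 2 fell and 2 rose, at a median of -0.57. With the loss of LN511 replicate 2, 1 fell, without LN511 replicate 3, 0 did by limma (19 at an unadjusted p under 0.05), and without LN511 replicate 1, 2 did. Without LN111 replicate 1, 3 fell, and without LN111 replicate 3, 5 fell.

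Keratins are the intermediate filaments of epithelial cells, and of 9 tested in the keratin list 6 had a negative and 3 a positive difference. Krt8, a keratin of hepatocytes, was at 3.93, 4.32 and 3.13 on LN111, against 5.21, 5.24 and 5.20 on LN511 (-1.42 ± 0.31, adjusted p = 0.0398), and its partner Krt18 at 6.31, 6.41 and 5.93 on LN111, against 7.35, 7.08 and 7.31 on LN511 (-1.03 ± 0.18, adjusted p = 0.0254). Krt80 also fell (-2.04, adjusted p = 0.0494), which made 3 that fell and 0 that rose (33.3% and 0%, against 6.93% and 4.01% of all genes). At an unadjusted p under 0.05 these counts were 4 and 1. Krt14, a keratin of basal epithelial cells, differed the other way, at 0.48, -0.30 and 0.95 on LN111, against -0.22, -2.52 and -2.07 on LN511, with overlapping groups, and did not pass (1.98 ± 0.65, adjusted p = 0.111). With quantile normalization 0 fell by limma (3 at an unadjusted p under 0.05), so these calls depended on the scaling. The duct keratins Krt7 and Krt19 did not pass. Krt7 was at 0.66, 3.89 and 1.58 on LN111, against 3.51, 5.35 and 4.36 on LN511 (-2.36 ± 0.90, adjusted p = 0.15), and Krt19 at 0.86, 4.24 and 1.98 on LN111, against 2.60, 4.74 and 3.57 on LN511 (-1.28 ± 0.96, adjusted p = 0.431). In both, replicate 2 was the highest array of its coating. When the fit omitted LN511 replicate 1, 2 or 3, or without LN111 replicate 3, 0 keratins fell by limma (3 to 5 at an unadjusted p under 0.05), and without LN111 replicate 1, 1 did. Without LN511 replicate 1, 10 keratins were tested and 1 rose.

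Of 31 markers of hepatic progenitors and bile ducts, 3 fell and 2 rose (9.68% and 6.45%, against 6.93% and 4.01% of all genes). Among genes whose name was no placeholder the shares were 4.56% lower and 4.55% higher. The counts are small and near the shares of all genes, and are no result about the list, whose median was -1.0. Their summed level was 117.8 to 131.3 on LN111 and 197.4 to 271.1 on LN511. Epcam, the adhesion molecule of ducts and progenitors, was at 1.05, 0.66 and -0.01 on LN111, against 2.72, 1.87 and 2.13 on LN511 (-1.67 ± 0.35, adjusted p = 0.0353). Sox4, a progenitor transcription factor, was at 1.26, 1.29 and 1.64 on LN111, against 2.46, 2.27 and 2.58 on LN511 (-1.04 ± 0.17, adjusted p = 0.0222), and Tnfrsf12a, the TWEAK receptor, at 2.94, 2.24 and 2.74 on LN111, against 3.88, 3.68 and 3.74 on LN511 (-1.13 ± 0.21, adjusted p = 0.0292). Sox9, which marks ducts and progenitors, was lower on every LN111 array, at -1.33, 0.20 and -1.37 on LN111, against 0.64, 0.81 and 0.94 on LN511, and did not pass (-1.63 ± 0.44, adjusted p = 0.0689). Its 4 probes differed by -2.58 to -1.03, and 2 of them were called when each probe was tested on its own. The 2 that rose were the water channel Aqp1 (1.35, adjusted p = 0.0167) and Thy1, which the fibroblast list holds too. Without scaling 0 fell and 4 rose. After leaving out LN511 replicate 1, 2 or 3, 0 passed limma at an adjusted p under 0.05, while 9 to 12 were lower at an unadjusted p under 0.05, and without LN111 replicate 1 or replicate 3, 1 fell. Without LN111 replicate 2, 11 fell.

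**Figure D3:**
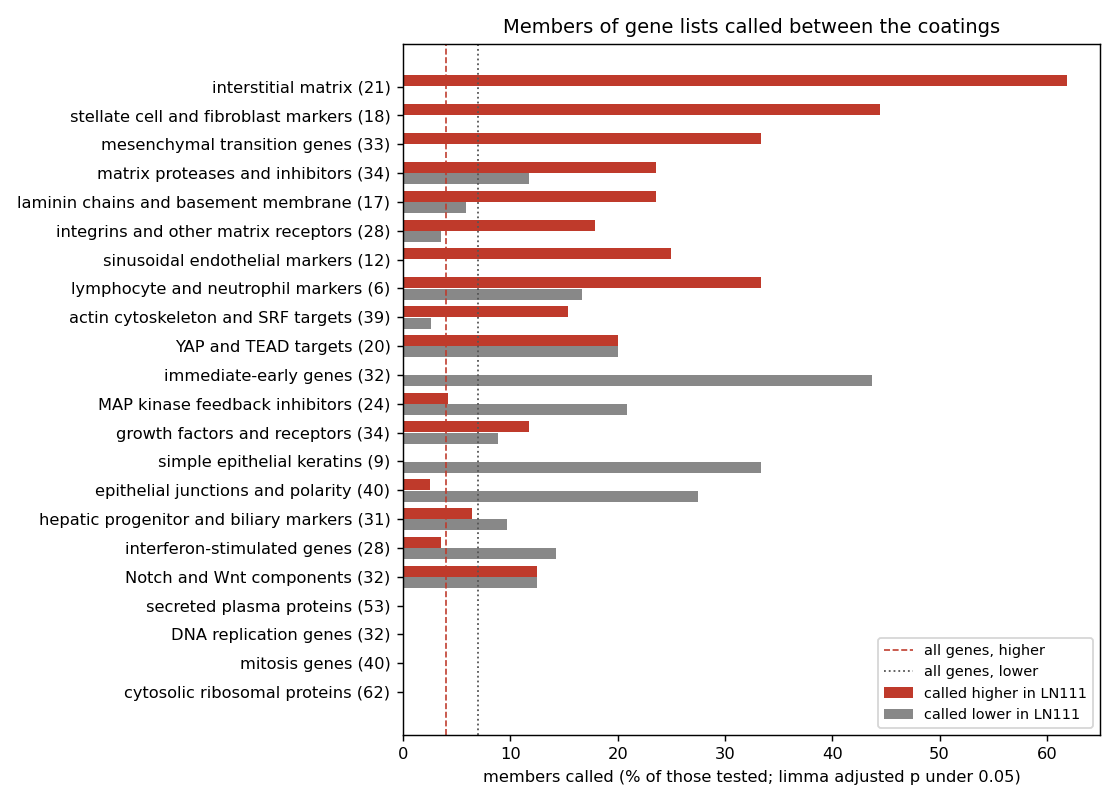
Share of tested members called higher (red) or lower (grey) on LN111, in percent, for 22 gene lists with the number of members tested in brackets. Dashed and dotted lines mark the shares over all genes, 4.01% higher and 6.93% lower. The interstitial matrix, fibroblast, transition and endothelial lists have red bars only, immediate-early genes and keratins grey bars only, and the last 4 lists no bar.

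Secreted proteins of hepatocytes spread widely within each coating. Of 53 secreted plasma proteins tested, 0 passed limma at an adjusted p under 0.05, and 3 had an unadjusted p under 0.05. Their mean deviation from the 6-array mean was 1.55, -1.13 and -0.28 on LN111 replicates 1 to 3, and 1.38, -1.91 and 0.39 on LN511 replicates 1 to 3. Replicate 1 was thus the highest and replicate 2 the lowest array of each coating. Their summed level was 483.8 to 1626 on LN111 and 416.1 to 1729 on LN511. The smallest p-value was that of Ttr, the thyroxine carrier, at 6.36, 6.34 and 6.28 on LN111, against 7.11, 6.58 and 7.02 on LN511 (-0.58 ± 0.18, adjusted p = 0.1). The factors Hnf4a and Cebpa, which maintain hepatocyte identity, differed by 0.77, adjusted p = 0.258 and by -0.45, adjusted p = 0.397. Of 35 genes of the urea cycle and amino acid catabolism 0 passed limma (4 at an unadjusted p under 0.05), and their deviations followed the same replicate numbers. Cyp7a1, the first enzyme of bile acid synthesis, was too dim to be tested.

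**Figure D4:**
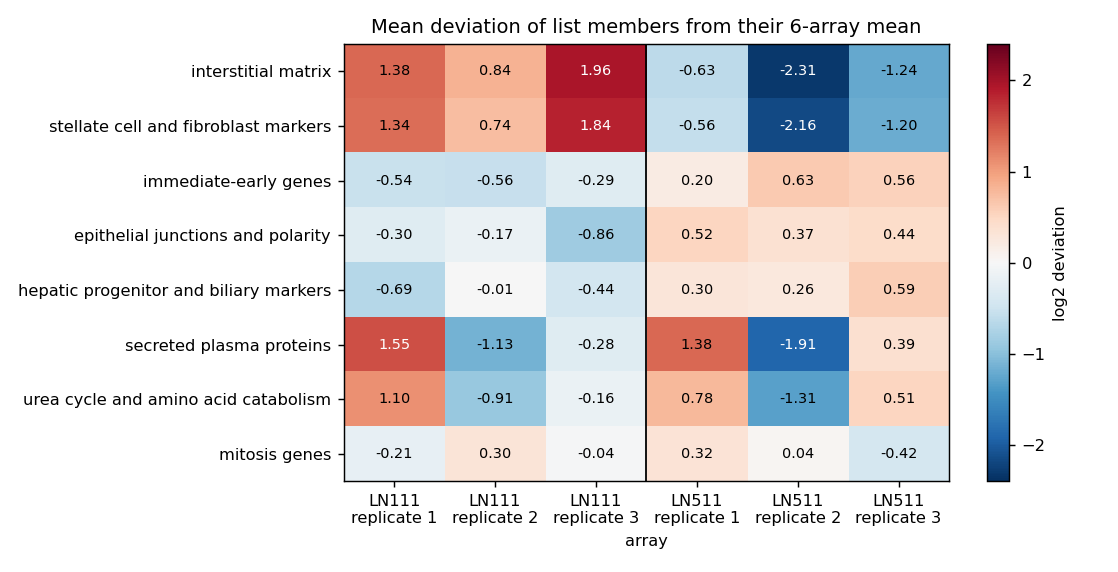
Mean log2 deviation of the tested members of 8 gene lists from their 6-array mean (colour and number) on each LN111 array (left of the line) and each LN511 array (right). Matrix and fibroblast lists are positive on every LN111 array and negative on every LN511 array, and early genes and junction genes the reverse. Plasma proteins and urea cycle genes are highest on replicate 1 and lowest on replicate 2 of each coating.

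Proliferation genes did not pass either. Of 40 mitosis genes and 32 DNA replication genes tested, 0 passed limma at an adjusted p under 0.05, while 6 and 4 had an unadjusted p under 0.05. Without scaling, 3 and 2 of them rose. Mki67, a marker of cycling cells, was at -2.41, -1.50 and -1.85 on LN111, against -1.39, -1.70 and -2.21 on LN511 (-0.15 ± 0.31, adjusted p = 0.791), and Ccnd1, cyclin D1, at 1.03, 2.13 and 1.33 on LN111, against 1.63, 2.85 and 2.20 on LN511 (-0.73 ± 0.41, adjusted p = 0.299). Of 62 cytosolic ribosomal proteins, 0 had an adjusted or an unadjusted p under 0.05 in the limma fit, at a median of -0.14. With a trended and robust fit 10 had an unadjusted p under 0.05 and 0 passed.

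Interferon-stimulated genes and Notch and Wnt genes had a few members that passed. Rsad2, viperin, was at -1.20, -0.70 and -1.42 on LN111, against 1.02, 2.10 and 2.07 on LN511 (-2.84 ± 0.36, adjusted p = 0.0153). Isg15, a ubiquitin-like modifier, was at -1.08, -1.71 and -1.96 on LN111, against 0.21, 0.04 and -0.28 on LN511 (-1.57 ± 0.27, adjusted p = 0.0235). In all, 4 of 28 interferon-stimulated genes fell and 1 rose (14.3% and 3.57%, against 6.93% and 4.01% of all genes). The 1 that rose was Oasl2, which was at least 1.47-fold higher. Hes1, a target of Notch, was at -3.20, -2.82 and -3.18 on LN111, against -1.97, -1.12 and -1.39 on LN511 (-1.57 ± 0.26, adjusted p = 0.0213). Notch1 was higher at -0.24, -0.76 and -0.21 on LN111, against -1.60, -2.21 and -2.59 on LN511 (1.73 ± 0.30, adjusted p = 0.0235). Wnt5a, a ligand of stromal cells, was at -1.50, -2.91 and -1.40 on LN111, against -5.26, -6.48 and -7.49 on LN511 (4.48 ± 0.67, adjusted p = 0.019, or 3.68 with signals raised to background, which 1 LN511 array was well above), and Dkk3 differed by 2.36, adjusted p = 0.0153. Of 32 Notch and Wnt genes 4 rose and 4 fell (12.5% each, against 4.01% and 6.93% of all genes), and without scaling 5 rose and 1 fell. With the loss of LN511 replicate 2 or replicate 3, 0 members of either list passed limma at an adjusted p under 0.05. At an unadjusted p under 0.05 there were then 6 or 8 interferon-stimulated and 13 or 10 Notch and Wnt genes. When the fit omitted LN511 replicate 1, LN111 replicate 1 or LN111 replicate 3, 1, 2 and 1 of the interferon-stimulated genes and 6, 2 and 1 of the Notch and Wnt genes passed, and without LN111 replicate 2, 8 of the Notch and Wnt genes fell.

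Many markers of other liver cell types were too dim to be tested. Of 23 endothelial markers 12 were tested, 3 rose (25% of those tested, against 4.01% of all genes) and 0 fell (6 and 1 at an unadjusted p under 0.05). Flt1 and Eng, receptors for VEGF and TGF-beta ligands, differed by 4.35, adjusted p = 0.0418 and by 3.71, adjusted p = 0.0309. They were well above background on 1 and 2 LN511 arrays, and differed by 3.66 and 3.63 with signals raised to background. Tek, the angiopoietin receptor, was at least 1.49-fold higher (adjusted p = 0.0231). Flt1, Eng and Tek passed the filter through LN111 alone, so the share of 25% is no result about the list. Cdh5, the cadherin that defines endothelium, was at -4.60, -4.27 and -3.78 on LN111, against -4.15, -4.26 and -4.21 on LN511, with overlapping groups, and Pecam1, Stab2 and Lyve1 were too dim to be tested. The summed level of the 12 was 2.16 to 6.63 on LN111 and 1.09 to 2.01 on LN511. Of 9 macrophage markers and 7 mesothelial markers tested, 0 passed limma, and 2 of each had an unadjusted p under 0.05. Ptprc, the pan-leukocyte marker, was too dim, and of 21 lymphocyte and neutrophil markers 6 were tested. Gzmb (at least 6.51-fold) and Camp (at least 2.04-fold) were higher and Nkg7 (at least 3.24-fold) was lower, or 33.3% and 16.7% of those tested against 4.01% and 6.93% of all genes. Each passed the filter only through the coating on which it was higher, so these shares are no result about the list. After leaving out LN511 replicate 2, 0 of the 18 endothelial and leukocyte markers passed limma, and 7 had an unadjusted p under 0.05. With the loss of LN511 replicate 1 or replicate 3, 1 endothelial marker passed, and without LN111 replicate 1 or replicate 3, 0 did (6 at an unadjusted p under 0.05). Without LN111 replicate 2, 6 rose.

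The largest decreases under the rule for names, came from 547 genes. Aig1, an androgen-induced transmembrane hydrolase, was at -3.39, -1.19 and -3.08 on LN111, against 2.58, 2.42 and 1.70 on LN511 (-4.78 ± 0.61, adjusted p = 0.0155). Abca12, a lipid transporter of skin, was at -2.65, -0.47 and -2.48 on LN111, against 3.18, 3.06 and 2.43 on LN511 (-4.75 ± 0.61, adjusted p = 0.0155), and Apcdd1l, at -1.89, 0.31 and -1.62 on LN111, against 3.96, 3.73 and 3.20 on LN511 (-4.70 ± 0.60, adjusted p = 0.0155), traced the same profile over the 6 arrays. So did Mospd2 (-4.41, adjusted p = 0.0153), Arid3a (-4.14, adjusted p = 0.0149) and Ammecr1 (-3.85, adjusted p = 0.0134). In all of them LN111 replicate 2 was the highest LN111 array and LN511 replicate 3 the lowest LN511 array.

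The probes of these 6 genes hold a run of alternating G and A, which was seen after the values were known. They are printed below with the run in capitals, each next to what it can be set against. Another probe of Aig1 and of Mospd2 comes after the one with the run, followed by a probe with a CA run and probes with the complementary CT and GT runs. Coordinates are those of the array's annotation in the files, whose header names build rn4, and they were not checked against a genome.
Aig1 probe, chr1:8537122-8537181, minus strand: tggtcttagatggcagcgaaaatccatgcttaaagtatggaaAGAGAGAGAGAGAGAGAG
Aig1 probe, chr1:8457109-8457168, minus strand: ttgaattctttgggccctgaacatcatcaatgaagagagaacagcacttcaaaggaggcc
Mospd2 probe, chrX:50212580-50212639, plus strand: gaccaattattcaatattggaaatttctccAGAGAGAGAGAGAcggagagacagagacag
Mospd2 probe, chrX:50201768-50201827, plus strand: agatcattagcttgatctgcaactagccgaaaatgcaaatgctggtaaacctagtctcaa
Abca12 probe, chr9:70327442-70327501, minus strand: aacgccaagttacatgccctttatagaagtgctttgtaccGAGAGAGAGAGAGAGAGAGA
Apcdd1l probe, chr3:164683908-164683967, minus strand: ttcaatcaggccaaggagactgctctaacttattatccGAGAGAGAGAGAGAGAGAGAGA
Arid3a probe, chr7:11269112-11269171, minus strand: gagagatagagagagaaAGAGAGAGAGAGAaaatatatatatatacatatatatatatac
Ammecr1 probe, chrX:35692550-35692609, plus strand: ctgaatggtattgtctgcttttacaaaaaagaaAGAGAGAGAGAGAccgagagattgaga
Glra2 probe, chrX:49977274-49977333, plus strand: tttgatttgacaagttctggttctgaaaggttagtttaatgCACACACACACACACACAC
Cd28 probe, chr9:59369623-59369682, plus strand: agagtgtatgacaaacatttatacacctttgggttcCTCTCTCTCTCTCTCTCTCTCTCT
Crispld1 probe, chr5:342147-342206, minus strand: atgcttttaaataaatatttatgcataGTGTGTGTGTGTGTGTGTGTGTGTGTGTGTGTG

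Probes of the same gene without the run did not share the decrease. The 2 other Aig1 probes differed by -0.13 and -0.08, and the 2 other Mospd2 probes by 0.56 and 0.61. Ccdc25, whose brightest probe also holds a GA run, differed by -3.06 on that probe and by -0.23 on the other. Over every probe tested on its own, 6.74% of 21729 were called lower and 3.88% higher. Of 15 probes with a GA run of 12 bases or more, 13 were called lower and 0 higher, with a median of -4.58. Of 38 probes with a CA run, 31 were called lower and 1 higher, with a median of -1.67. Of the 15 with a CT run, 0 were lower and 1 higher, with a median of 0.84, and of the 59 with a GT run, 0 were lower and 1 higher, with a median of 0.19. The 13 GA-run probes were called lower also with quantile normalization, without scaling and with normexp background correction, while the CA-run probes numbered 28, 5 and 33 in these settings.

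The 1 CA-run probe that was higher belongs to Col5a2, a collagen of the interstitial matrix list. Probes with no such run but with purines in 70% or more of their bases were called lower in 42 of 320 cases (13.1%), against 591 of 8846 (6.68%) of those with 50% to 60% purines. Placeholder names, mostly predicted transcripts, made up 54.8% of the genes called lower, 22% of those called higher and 31.3% of those tested. Without probes that hold a GA or CA run, 696 genes were higher and 1156 lower.

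**Figure D5:**
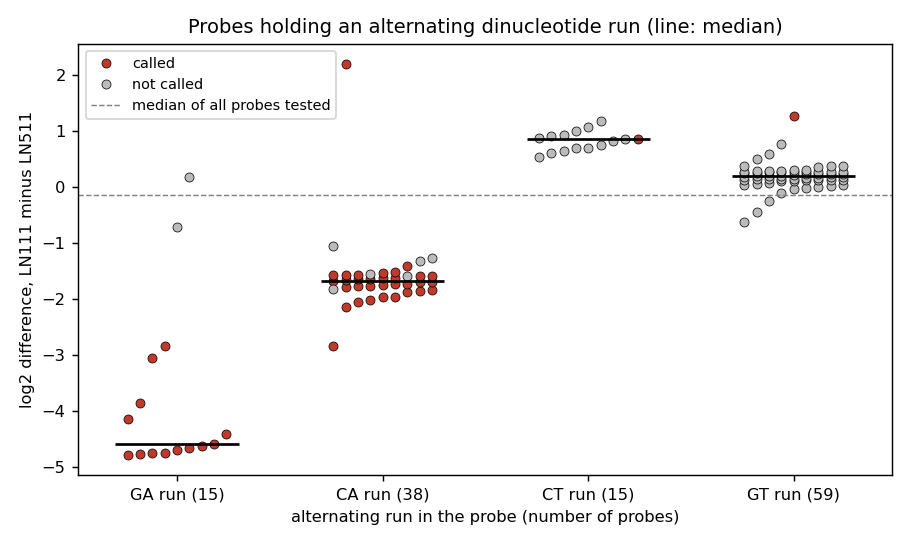
Log2 difference, LN111 minus LN511 (vertical axis), of every tested probe that holds an alternating GA, CA, CT or GT run of 12 bases or more, with the number of probes in brackets. Red points are called at a limma adjusted p under 0.05, black lines are medians and the dashed line is the median of all probes tested. GA-run probes centre on -4.58 and CA-run probes on -1.67, while CT-run and GT-run probes lie mostly above 0.

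The rest of the 12 largest decreases were measured on probes without such runs. Il24, a cytokine of the IL-10 family, was at -4.95, -2.10 and -5.24 on LN111, against -0.47, 1.17 and -0.78 on LN511 (-4.07 ± 0.96, adjusted p = 0.0479). Stmn4, a neuronal stathmin, was at -7.07, -5.01 and -6.15 on LN111, against -2.76, -2.13 and -1.82 on LN511 (-3.84 ± 0.55, adjusted p = 0.0178), well above background on 1 LN111 array (-3.45 with signals raised to background). RT1-M4, a class Ib histocompatibility gene, was well above background on 1 LN111 array and differed by -3.42, adjusted p = 0.0167, or by -2.43 with signals raised to background. Ksr2, a scaffold of the RAS pathway, was at least 4.16-fold lower on LN111 (adjusted p = 0.0158), and Lrrc2 at least 4.77-fold lower on LN111 (adjusted p = 0.0153), since neither was well above background on LN111. For each of these 5 genes every LN111 array lay below every LN511 array. Of the 12 genes, Ankrd1 was in a list described above.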

How the data were processed

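RNA of 6 samples was measured on single-colour Agilent arrays. The labels' protocols give 100 ng of total RNA per sample and the dye Cy3. Per the submitters' processing notes, Agilent Feature Extraction 10.7 read the images. The processed signal in the authors' deposited scanner files is an intensity on a linear scale, with the background subtracted and a spatial trend removed per the file headers. The deposited value table holds the same intensity unscaled (column medians 61.8, 59.0 and 45.1 for LN111, and 45.5, 49.0 and 43.6 for LN511) and differed from it by at most 0.0072 on the log2 scale.

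Here log2 of the processed signal minus each array's 75th percentile was used. Controls and spots marked as outliers were dropped, which lost 43 of 45598 probes, and repeated spots were averaged. Genes took the name of their accession or symbol in the RefSeq gene table (29304 probes), or the file's own name (16251 probes), which can be old. Genes were tested where the 3 arrays of either coating all had a probe well above background, and the brightest probe stood for the gene. LN111 minus LN511 was tested two-sided with limma 3.58.1 in R 4.3.3 (lmFit, eBayes, the 6 arrays only), with Benjamini-Hochberg adjustment over all genes and a threshold of 0.05. Errors beside differences are standard errors. On simulated data of 17468 genes, the test recovered 18.4% of genes changed 2-fold and 63.4% of those changed 4-fold, with 6.3% false calls. The simulation changed far fewer genes than were called here and drew the noise of each gene independently. These rates therefore need not hold for the real comparison. "At least N-fold" sets the brighter coating against, on each array of the dimmer one, the higher of the probe's signal and the lowest signal well above background.

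The members, the 41 gene lists and the tests were chosen with earlier results of these data known. Named were the 12 largest differences in each direction (named gene, coatings apart, above background on the higher one), 30 genes fixed by name, and up to 4 members of each list with the smallest p. The values of 1 gene are not reported here. Others are marked as named after their values were seen or to complete a count. Same-numbered arrays were not treated as pairs in the main fit, and the labels do not say whether they belong together. The correlations of their deviations from the coating means were 0.49, 0.56 and 0.09, against -0.51 to 0.08 for arrays of different number. Replicates 1 and 2 thus varied together across the coatings, and replicate 3 hardly did. Alternatives were other scalings, filters, probe rules and fits, a replicate block and leaving out each array.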

Additional observations from a re-analysis of the deposited data

How the results depend on the processing

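The count of genes higher on LN111 was 700, and 1510 without scaling, 450 with normexp background correction, 392 for genes above background on all 6 arrays, 424 with no filter and 1110 with the Matrigel arrays in the fit. The count lower was 1211, and 428, 1147, 684, 818 and 2145 in these settings, and 2071 with array weights. Leaving out 1 array gave 37 to 985 higher and 48 to 1727 lower. Calls higher made up 36.6% of calls, 50.4% with quantile normalization and 77.9% without scaling. Genes with all LN111 arrays above all LN511 arrays numbered 1930, 5405 without scaling, and 2233 to 2956 with an array left out. Those with all below numbered 4302, and 1009 without scaling and 9263 with no filter, and 4936 to 6218 with an array left out.

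Interstitial matrix members that rose numbered 1 to 14 with an array left out, at medians of 2.86 to 3.92. Fibroblast markers that rose numbered 14 without scaling and 0 to 11 with an array left out, and the list's median was 2.33 with normexp, 1.98 with no filter and 2.04 to 3.34 with an array left out. Immediate-early genes that fell numbered 9 with quantile normalization, 4 without scaling (median -0.45), 6 with no filter and 1 to 12 with an array left out. Junction genes that fell numbered 5 with quantile normalization, 2 without scaling (median -0.57), 4 with no filter, 20 with the Matrigel arrays, 19 with array weights and 0 to 16 with an array left out, at medians of -1.21 to -0.78.

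With an array left out, the difference of Aig1 ran from -5.47 to 0.014 (without LN511 replicate 2) and that of Mospd2 from -5.03 to 0.62. Mospd2 was at 0.53, 0.53 and 0.62 without LN511 replicates 1, 2 and 3, and 0.56 without probes holding a GA or CA run, because another probe then stood for the gene. With the replicate block, 997 genes were higher and 1468 lower and 13 fibroblast markers rose, and of the 90 named genes called 86 kept their call, but the numbers were not shown to pair the arrays. The deposited value table and the settings without GA-run and CA-run probes were added after the data were seen. The value table kept the call of all 90 named genes. With a filter of all 6 arrays, 29 of the 90 were not tested. Dim genes limit the comparison: 391 called genes were well above background on no array of the lower coating.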

Other observations

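Inflammatory genes, which the comparison above did not describe, were called about as often as all genes. Of 40 NF-kB and inflammatory genes, 2 rose and 3 fell by limma (5% and 7.5%, against 4.01% and 6.93% of all genes), which is no result about the list, and single members are given as values. Cxcl12, a chemokine of stromal cells, was at 2.64, 1.73 and 3.07 on LN111, against 0.05, -3.71 and -1.49 on LN511 (4.19 ± 0.95, adjusted p = 0.0436), and Il33, a nuclear cytokine, differed by 3.04. Lif, a cytokine of the IL-6 family, Cxcl10, a chemokine induced by interferon, and Irak3, an inhibitor of Toll-like receptor signalling, fell by 1.85, 1.76 and 0.98 on the log2 scale. Without LN511 replicate 2 or replicate 3, 0 of these 40 genes passed limma, and 12 or 11 had an unadjusted p under 0.05.

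The glucose transporters went opposite ways in the glycolysis and hypoxia list, where 4 of 37 rose and 2 fell (10.8% and 5.41%, against 4.01% and 6.93% of all genes). Slc2a3 was at 0.54, -0.30 and 1.15 on LN111, against -1.81, -4.76 and -3.58 on LN511, with all LN111 arrays above all LN511 arrays. Slc2a1 was at 1.00, 0.40 and 0.71 on LN111, against 1.63, 1.70 and 1.82 on LN511, with all LN111 arrays below. Hk1, Eno2 and Ero1a rose, and Ankrd37 fell. In unscaled values 8 members rose and 0 fell, and without LN511 replicate 2 or replicate 3, 0 passed limma while 10 or 12 had an unadjusted p under 0.05.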
